A study of Homo sapiens with 16 samples.

Results

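Expression of 29 genes of cholesterol synthesis, uptake, efflux and storage, and of the SREBP proteins that control them, was measured after gain of MIR9-2-5p in 2 testicular germ cell tumour lines. The members were set by symbol. They comprise 7 enzymes from acetyl-CoA to farnesyl pyrophosphate and 10 enzymes from the making of squalene to cholesterol. The others are 5 genes of SREBP control and 7 genes of uptake, transport, efflux and storage. Each symbol matched 1 of the 58735 gene IDs in the deposited table of read counts, and all 29 members passed the filter on low counts in every comparison. NT2/D1, called NTERA-2 in the sample labels, is a clone of an embryonal carcinoma (EC) line, and TCam-2 is a seminoma (SEM) line. Cells of each line received a mimic of MIR9-2-5p or a scrambled mimic at 25 nM and were collected after 3 days, with 4 biological replicates in each of the 4 groups and thus 16 libraries. Every group was transfected, so the scrambled libraries carry the effects of transfection as well. The lines grew in different media, DMEM for NT2/D1 and RPMI with non-essential amino acids and pyruvate for TCam-2, both with foetal bovine serum, so line and medium cannot be told apart. The published methods name foetal calf serum and L-glutamine for both lines, and no non-essential amino acids or pyruvate. That conflict was not settled. A single line stands for each tumour type, and the mimic was delivered by transient transfection.

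Cells make cholesterol from acetyl-CoA through mevalonate, isoprenoid pyrophosphates, squalene and lanosterol. The transcription factors SREBP1 and SREBP2 (genes SREBF1 and SREBF2) are held in the endoplasmic reticulum with their escort SCAP by the INSIG proteins while sterols are plentiful, and are carried to the Golgi, cleaved and sent to the nucleus when sterols fall. SREBP2 mainly drives genes of cholesterol synthesis and uptake, INSIG1 is itself a target, and the oxysterol receptors LXRalpha and LXRbeta (NR1H3 and NR1H2) drive export through ABCA1 and ABCG1 and, through MYLIP, breakdown of the LDL receptor. A microRNA (miRNA) acts mainly by pairing its seed, the bases near its 5′ end, with matches in the 3′ UTR of an mRNA. RNA levels do not show SREBP cleavage, enzyme activity or sterol content, which were not measured here.

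Each library held between 14167738 and 22427162 counts. In scrambled libraries SOX2, a pluripotency factor of EC, lay at 337 to 398 CPM (counts scaled to library size) in NT2/D1 and 1.26 to 1.77 CPM in TCam-2, and SOX17, a factor of seminoma, at 0 to 0.106 CPM and 222 to 250 CPM. The EC markers did not all mark the line: L1TD1 was lower in scrambled NT2/D1 (705 to 900 CPM) than in scrambled TCam-2 (998 to 1063 CPM). The summed level of 5 EC markers went from 2366 to 2517 CPM in scrambled NT2/D1 to 657 to 728 CPM with the mimic, and all 5 fell. In TCam-2 that sum went from 1145 to 1220 CPM to 729 to 855 CPM, and 3 of 4 tested fell. The 5 seminoma markers summed to 1385 to 1482 CPM in scrambled and 1610 to 1743 CPM in mimic libraries of TCam-2, where 3 rose, KIT (2.65-fold) among them, and 1 (PDPN) fell. Of 7 fibroblast markers 6 could be tested. In NT2/D1, 5 rose and 1 (THY1) fell (sums 508 to 600 CPM scrambled, 602 to 690 CPM mimic). In TCam-2, 5 fell (470 to 490 CPM and 191 to 211 CPM), and DCN was at 0 in all NT2/D1 libraries. These sums cannot be read as fibroblast content. In scrambled libraries THY1 stood at 351 to 384 CPM in NT2/D1 and COL1A2 at 384 to 404 CPM in TCam-2. The NT2/D1 sum mixes the fall of THY1 (2.25-fold) with the 5 rises, COL1A1 (2.74-fold) among them. In bulk RNA, fewer cells of a type and less RNA per cell cannot be told apart. The part of these marker shifts in the results on cholesterol genes was not tested. In TCam-2 the TMM scaling factors also moved with the group, from 0.893 to 0.970 in scrambled and from 1.025 to 1.038 in mimic libraries.

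The mature miRNA is shown first, as the agent given to the cells, with its seed (bases 2 to 8) in capitals. RefSeq places it at chr5:88666902-88666924 on the minus strand of GRCh38.p14, and the letters of the commercial mimic itself were not used here.
hsa-miR-9-5p: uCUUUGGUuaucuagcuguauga

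An mRNA can match this seed over 8 bases (ACCAAAGA, an 8mer) or 7 bases (ACCAAAG or CCAAAGA). In the canonical GENCODE 44 transcripts, 0 of the 29 members held an 8mer in the 3′ UTR, against 4.84% of 14263 genes tested in NT2/D1 with a 3′ UTR. A 7mer stood in 7 members, which is 24.1% of 29, and 24% of those genes held a 7mer or 8mer. The 7 members with a match (match in capitals) were ACAT2, SC5D, INSIG1, INSIG2, STARD4, ABCA1 and SOAT1. They are printed so that each can be set beside its values.
ACAT2, 7mer-m8 at chr6:159778906-159778912, plus strand: tgtgaaatcagaggACCAAAGtaca
SC5D, 7mer-A1 at chr11:121309096-121309102, plus strand: ccagagactaggacCCAAAGAagtt
INSIG1, 7mer-m8 at chr7:155310078-155310084, plus strand: tagaaaatatatgaACCAAAGtgat
INSIG2, 7mer-A1 at chr2:118108951-118108957, plus strand: ttactggagacagcCCAAAGAgtaa
STARD4, 7mer-m8 at chr5:111496725-111496731, minus strand: ctcctccttttctaACCAAAGggca
ABCA1, 7mer-A1 at chr9:104781476-104781482, minus strand: aggtaaaatattttCCAAAGAgcca
SOAT1, 7mer-A1 at chr1:179354163-179354169, plus strand: aaaatgtctgttttCCAAAGAtaat

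In NT2/D1, 4 of these 7 members rose with the mimic (INSIG2, STARD4, ABCA1 and SOAT1), 0 fell and 3 did not pass the test. In TCam-2, 1 rose (ABCA1), 2 fell (ACAT2 and INSIG1) and 4 did not pass. Among the 22 members with no such match, 8 rose and 1 fell in NT2/D1, and 4 rose and 15 fell in TCam-2. Of all genes tested, 30.2% rose and 29.1% fell in NT2/D1, and 33.7% rose and 32.7% fell in TCam-2. By adjusted p, the clearest falls in TCam-2 were those of LSS, FDFT1, FDPS, TM7SF2 and INSIG1. LSS, FDFT1, FDPS and TM7SF2 had no 6-base match either, while INSIG1 held a 7mer and a further 6-base match. The 3′ UTRs of FDPS and TM7SF2 are short, at 56 and 177 bases, beside a median of 1218 over the members. The share of all genes without a 6-base match was not computed, and the part of seed pairing in these falls was not tested.

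RefSeq promoters (250 bases before to 50 after the start, GRCh38.p14) were found for 25 of the 29 members and searched on both strands. The sterol regulatory element written as TCACNCCAC stood in 1 member, SREBF2, and in 1.13% of all 35116 promoters of that length, and its core CACNCCAC, which lies within it, in 4 members (SREBF2, INSIG1, SC5D and ABCA1) and in 5.87% of all. The GC box GGGCGG was in 23 of 25 against 45.0%, the CCAAT box CCAAT in 16 against 34.6%, and the E-box CACGTG in 5 (LSS, SC5D, SCAP, INSIG1 and ABCA1) against 7.26%. These shares are over all RefSeq promoters of that length, expressed or not, while every member passed the filter on low counts. Shares among the genes tested here were not computed, so the gaps cannot be read as traits of this pathway. A direct repeat of the kind bound by LXR, AGGTNANNNNNGGTCA, whose letters were chosen from the known ABCA1 element, was in ABCA1 alone among the 25 and in 0.094% of all. A match describes letters and not a bound site, and other spellings of these elements were not searched. The promoters of SREBF2, INSIG1 and ABCA1 are printed because these genes stand for the factor, its feedback target and the export arm, and because in TCam-2 INSIG1 fell while SREBF2 and ABCA1 rose. Capitals mark the element in SREBF2, the core on the opposite strand in INSIG1 and the LXR repeat on the opposite strand in ABCA1.
SREBF2, chr22:41832855-41833154, plus strand: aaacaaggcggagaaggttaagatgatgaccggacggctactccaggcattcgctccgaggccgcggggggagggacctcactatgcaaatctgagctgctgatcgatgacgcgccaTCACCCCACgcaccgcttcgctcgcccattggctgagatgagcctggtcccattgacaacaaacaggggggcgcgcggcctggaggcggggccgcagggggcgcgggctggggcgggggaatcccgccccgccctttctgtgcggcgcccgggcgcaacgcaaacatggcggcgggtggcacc
INSIG1, chr7:155297628-155297927, plus strand: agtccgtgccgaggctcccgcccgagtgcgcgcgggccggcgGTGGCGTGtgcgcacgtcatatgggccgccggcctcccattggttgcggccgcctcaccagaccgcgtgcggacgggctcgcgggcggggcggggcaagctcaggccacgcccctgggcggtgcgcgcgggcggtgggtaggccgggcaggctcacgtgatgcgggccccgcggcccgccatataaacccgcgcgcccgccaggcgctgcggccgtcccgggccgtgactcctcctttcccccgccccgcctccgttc
ABCA1, chr9:104928106-104928405, minus strand: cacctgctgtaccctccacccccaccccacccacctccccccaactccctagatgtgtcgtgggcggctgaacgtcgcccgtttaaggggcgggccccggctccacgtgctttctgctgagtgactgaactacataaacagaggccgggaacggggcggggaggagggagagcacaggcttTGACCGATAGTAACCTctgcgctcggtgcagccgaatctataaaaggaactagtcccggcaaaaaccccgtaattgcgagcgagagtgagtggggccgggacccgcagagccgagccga

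To ask how MIR9-2-5p changed these genes, mimic and scrambled libraries were compared within each line with edgeR's quasi-likelihood test, and a gene was called at a Benjamini-Hochberg adjusted p under 0.05 over all genes tested. The lines responded differently. In TCam-2 most enzymes of cholesterol synthesis fell: 13 of 17 were lower (76.5%, against 32.7% of all genes tested). There 1 was higher (5.88% against 33.7%), and the median log2 fold change was -0.52. In NT2/D1, 6 of the 17 rose (35.3%, near the 30.2% of all genes tested) and 0 fell, against 29.1% of all genes tested. The median there was 0.15, although with upper-quartile factors 4 rose and 2 (FDPS and HSD17B7) fell. The pump genes ABCA1 and ABCG1 rose in both lines, with ABCA1 the largest rise of any member in TCam-2 (4.90-fold) and SOAT1 in NT2/D1 (3.46-fold).

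Over all 29 members, 12 rose, 1 fell and 16 did not pass the test in NT2/D1, so that 44.8% were called where 59.3% of all 17586 genes tested were. By direction, 41.4% of members were higher against 30.2% of all genes, and 3.45% lower against 29.1%. In TCam-2, 5 rose, 17 fell and 7 did not pass, so that 75.9% were called against 66.3% of 16847 genes. There, 58.6% were lower against 32.7%, and 17.2% higher against 33.7%. The members were chosen with earlier results of these data known, so these shares describe them and are no independent test. Groups did not overlap for 10 members in NT2/D1 (34.5%, against 52% of all genes tested) and for 21 in TCam-2 (72.4% against 59%). The median log2 fold change of the members was 0.18 in the EC line and -0.46 in the SEM line, beside -0.02 and 0.02 for all genes tested. The split in NT2/D1 depended on the scaling: with upper-quartile factors, which moved the median of all genes to -0.09, 8 members were higher and 6 lower (FDPS, HSD17B7, SREBF1, SREBF2, SCAP and MYLIP), and without scrambled replicate 2 the lower members numbered 4. No alternative scaling changed the number of lower members in TCam-2 from 17.

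The difference between the lines was itself tested, as the interaction of line and mimic over all 16 libraries, where a positive value means a higher log2 fold change in NT2/D1 than in TCam-2. It passed for 26 of 29 members (89.7%, against 53.2% of 19576 genes tested), 22 of them positive (75.9% against 27.9%) and 4 negative (13.8% against 25.3%). The 4 negative ones were SREBF2, ABCA1, ABCG1 and MYLIP, of which ABCG1 was not called with no filter. The median difference was 0.70 over the members and 0.00053 over all genes. The 3 members without a called difference were CYP51A1, SREBF1 and STARD4. For SREBF1 (-0.35, adjusted p = 0.164) it was called with upper-quartile factors (-0.48, adjusted p = 0.0409), without NT2/D1 scrambled replicate 2 (adjusted p = 0.0277) and without TCam-2 mimic replicate 3 (adjusted p = 0.0481). All 7 early enzymes and 9 of the 10 later ones had a positive difference, which includes genes that moved in 1 line alone.

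**Figure D1:**
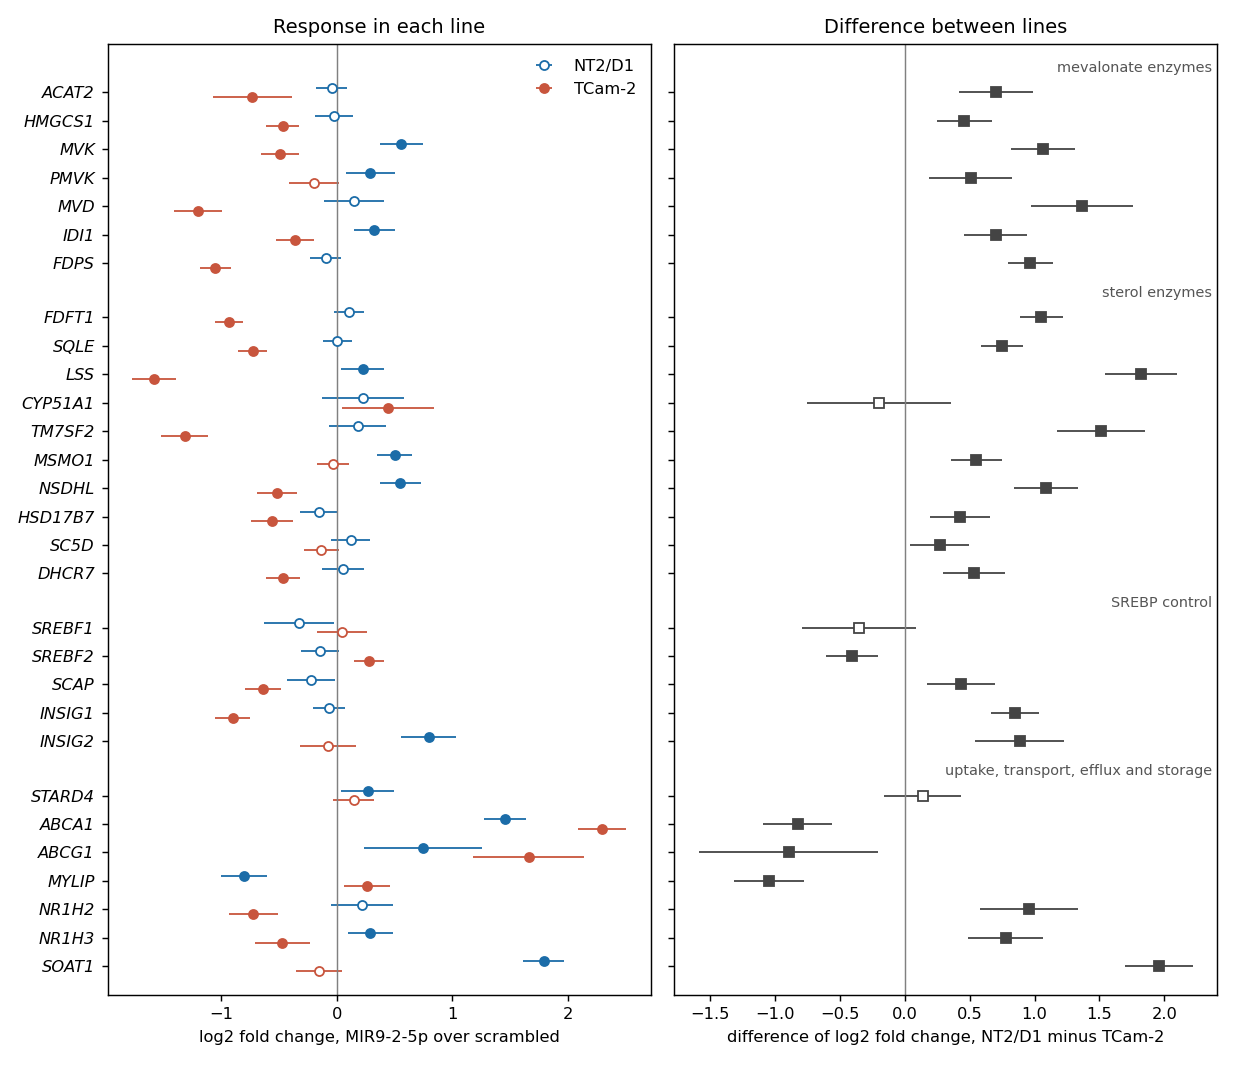
Left, log2 fold change of MIR9-2-5p over scrambled in NT2/D1 (blue) and TCam-2 (red) for the 29 members; right, the difference of the log2 fold changes, NT2/D1 minus TCam-2 (squares). Lines are 95% confidence intervals, filled symbols passed an adjusted p of 0.05 and open symbols did not. In TCam-2, 13 of the 17 enzymes lie called below 0 (76.5%, against 32.7% of all genes tested). In NT2/D1 none does with the TMM factors plotted here, against 29.1% of all genes tested (2 do with upper-quartile factors).

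Among the 7 early enzymes, 3 rose in NT2/D1 (42.9%, against 30.2% of all genes tested). In TCam-2, 6 fell (85.7% against 32.7%). FDPS, which makes farnesyl pyrophosphate for sterols and for prenylation of proteins, fell most clearly by adjusted p. Its libraries lay at 158.2, 180.7, 166.7 and 161.5 CPM with the scrambled mimic and at 77.2, 84.9, 80.1 and 77.8 CPM with MIR9-2-5p in TCam-2. The groups were far apart, and FDPS was 2.07-fold lower (log2 fold change -1.05, SE 0.065, edgeR adjusted p = 2.27e-10). In NT2/D1 it ranged over 169.9 to 176.8 CPM scrambled and 159.4 to 170.1 CPM with the mimic, groups that touch through 1 mimic library, and did not pass (log2 -0.10, 95% interval -0.23 to 0.03, adjusted p = 0.191). Between the lines the log2 fold changes differed by 0.97 (adjusted p = 6.1e-10).

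MVD, which decarboxylates the mevalonate diphosphate, fell 2.29-fold in TCam-2 (log2 -1.20). The other early enzymes that fell there were ACAT2 (-0.73), which joins acetyl-CoA units, HMGCS1 (-0.46), the HMG-CoA synthase, MVK (-0.49), the mevalonate kinase, and IDI1 (-0.36), the isomerase of isopentenyl pyrophosphate. PMVK, the next kinase after MVK, had a log2 fold change of -0.20 in TCam-2 and did not pass. In NT2/D1, MVK (0.56), PMVK (0.29) and IDI1 (0.32) rose. The PMVK groups overlapped there, and PMVK was not called with upper-quartile factors. MVK and IDI1 thus moved in opposite directions in the lines, with called differences of 1.07 and 0.70. For ACAT2, HMGCS1 and MVD the 95% intervals in NT2/D1 included 0 (log2 -0.04, -0.02 and 0.15). ACAT2 rested on 51 to 122 counts per library in TCam-2, and 454 of its 2639 exon bases overlap TCP1 on the other strand.

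Of the 10 later enzymes, 3 rose in NT2/D1 (30%, where 30.2% of all genes tested rose). In TCam-2, 7 fell (70% against 32.7%) and 1 rose (10% against 33.7%). LSS, which folds squalene epoxide into lanosterol, had the largest fall of any member. In TCam-2 it lay at 162.2, 180.0, 182.3 and 183.5 CPM scrambled and at 64.8, 65.0, 46.4 and 58.3 CPM with MIR9-2-5p. Every mimic library was well under every scrambled one, a 2.99-fold fall (log2 -1.58, SE 0.089, edgeR adjusted p = 6.86e-11). In NT2/D1 the values were 542.9, 422.4, 480.8 and 507.5 CPM scrambled and 561.9, 669.3, 529.9 and 528.6 CPM with the mimic, groups that overlap. The rise there was small (log2 0.22, SE 0.087, adjusted p = 0.0347) and was not called when any of 4 libraries was left out, with adjusted p = 0.0624 without mimic replicate 1, 0.121 without mimic replicate 2, 0.0824 without scrambled replicate 2 and 0.0832 without scrambled replicate 3. It was also lost with upper-quartile factors (adjusted p = 0.134) and with a replicate block (adjusted p = 0.0777). The difference between lines, 1.82 on the log2 scale (SE 0.14, adjusted p = 6.83e-11), ranged from 1.73 to 1.88 as single libraries were left out.

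FDFT1, squalene synthase, is the first enzyme committed to sterols. In TCam-2 its values went from 472.7, 514.7, 528.5 and 516.0 CPM scrambled to 271.9, 262.6, 262.6 and 259.2 CPM with the mimic, with tight groups and a 1.91-fold fall (log2 -0.93, SE 0.057, edgeR adjusted p = 1.95e-10). In NT2/D1 the groups overlapped, at 485.5 to 532.9 CPM and 527.1 to 586.6 CPM (log2 0.10, 95% interval -0.03 to 0.23, adjusted p = 0.161). SQLE, squalene epoxidase and a rate-limiting step after squalene, lay in TCam-2 at 329.2, 327.9, 334.3 and 336.8 CPM scrambled and at 183.8, 202.0, 209.5 and 200.1 CPM with the mimic, a 1.66-fold fall (log2 -0.73, SE 0.060, adjusted p = 9.58e-09). In NT2/D1, SQLE stood at 179.2 to 186.8 CPM scrambled and 181.0 to 190.2 CPM with the mimic, overlapping groups with a log2 fold change of 0.0068 (95% interval -0.12 to 0.13, adjusted p = 0.932). The mimic libraries of TCam-2 thus came near the SQLE level of NT2/D1, from a scrambled level that was higher. The differences between lines were 1.05 for FDFT1 (adjusted p = 5.64e-11) and 0.75 for SQLE (adjusted p = 1.23e-08).

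TM7SF2, a sterol reductase, lay in TCam-2 at 53.8, 67.8, 58.1 and 58.9 CPM scrambled and at 25.1, 27.2, 19.2 and 23.2 CPM with the mimic. The groups were separate, and the fall was 2.49-fold (log2 -1.31, SE 0.098, edgeR adjusted p = 2.46e-09). In NT2/D1 its groups overlapped, at 28.0 to 40.9 CPM scrambled and 36.4 to 48.5 CPM with the mimic, and it did not pass (log2 0.18, 95% interval -0.06 to 0.42, adjusted p = 0.19). NSDHL, which acts with MSMO1 in removing methyl groups from the sterol ring, moved in opposite directions. In NT2/D1 it went from 30.2, 31.7, 28.1 and 32.1 CPM to 46.2, 48.9, 41.8 and 42.5 CPM (log2 0.55, SE 0.083, adjusted p = 2.6e-05), and in TCam-2 from 50.3, 63.3, 61.1 and 59.3 CPM to 44.2, 39.3, 36.2 and 41.9 CPM (log2 -0.52, adjusted p = 2.55e-05). Neither pair of groups overlapped. MSMO1 rose in NT2/D1, from 173.0, 194.6, 189.9 and 186.2 CPM to 258.0, 236.9, 285.4 and 275.2 CPM without overlap (log2 0.50, SE 0.072, adjusted p = 1.46e-05). In TCam-2 its groups, 173.9 to 181.6 CPM and 156.1 to 187.9 CPM, overlapped (log2 -0.03, 95% interval -0.17 to 0.11, adjusted p = 0.686).

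DHCR7, which makes the last reduction to cholesterol, fell in TCam-2 (log2 -0.46), as did HSD17B7, a sterol ketoreductase (-0.56), and neither passed in NT2/D1 (0.05 and -0.15). SC5D, a sterol desaturase, passed in neither line (0.12 in NT2/D1 and -0.13 in TCam-2). CYP51A1, the lanosterol demethylase, was the single enzyme called higher in TCam-2 (log2 0.44, SE 0.19, edgeR adjusted p = 0.0453), with overlapping groups of 3.44 to 4.70 CPM and 3.54 to 6.94 CPM. That call rested on 52 to 138 counts a library and was absent with DESeq2, with RLE factors, with the replicate block and in 1 fit of all 16 libraries. CYP51A1 shares 2844 of its 4171 exon bases with another annotated gene on the same strand, so its counts here are uncertain.

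**Figure D2:**
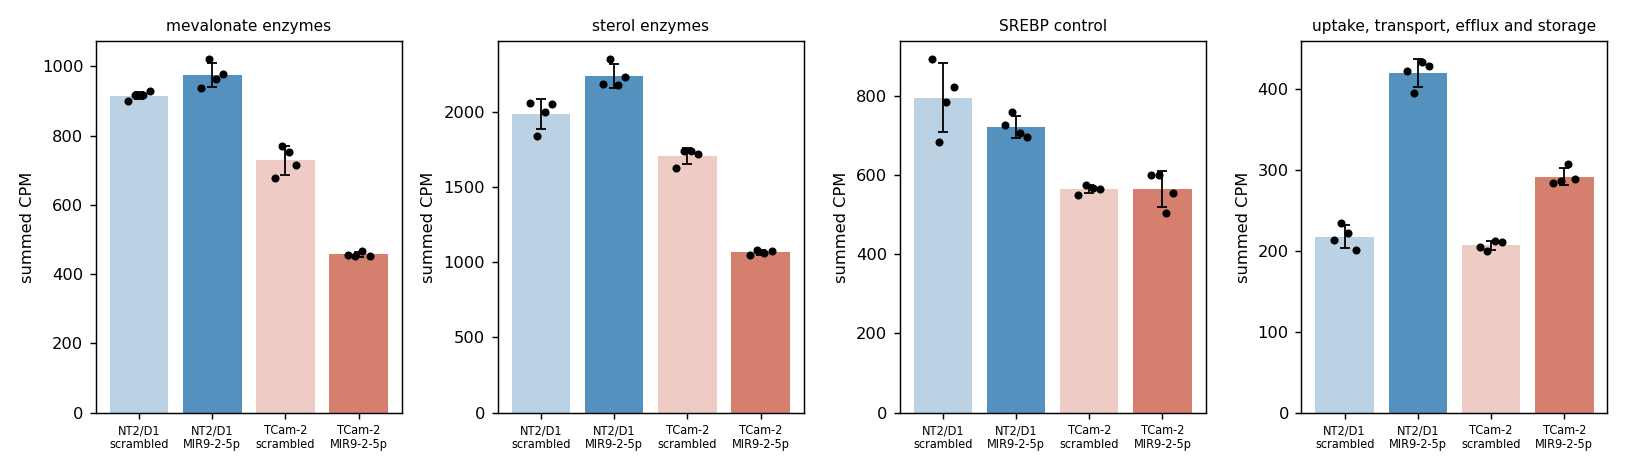
Summed CPM of the members of each role in every library (points), with the mean (bar) and SD (error bar) of 4 libraries a group. In TCam-2 both sets of enzymes were lower in all mimic libraries (452 to 468 CPM against 677 to 771 CPM for the mevalonate enzymes). The sum over uptake, transport, efflux and storage was higher with the mimic in both lines. In TCam-2, ABCA1 weighs most in that sum in the mimic libraries but not in the scrambled ones.

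Summed over the role, the 7 mevalonate enzymes took 677 to 771 CPM in scrambled and 452 to 468 CPM in mimic libraries of TCam-2, and the 10 sterol enzymes 1627 to 1744 CPM and 1048 to 1084 CPM. In NT2/D1 the same sums were 900 to 928 CPM and 938 to 1021 CPM, and 1844 to 2062 CPM and 2182 to 2353 CPM. The sums move mainly with the abundant members, and no test was made on them. The 5 genes of SREBP control had overlapping sums in both lines, 683 to 893 CPM and 697 to 761 CPM in NT2/D1, and 551 to 576 CPM and 505 to 600 CPM in TCam-2. The last role went from 201 to 234 CPM to 395 to 434 CPM in NT2/D1 and from 199 to 212 CPM to 284 to 307 CPM in TCam-2. In TCam-2 the mean of that sum went from 206.6 to 291.6 CPM, while ABCA1 alone went from 26.8 to 130.1 CPM.

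The SREBP control genes did not share 1 direction. SREBF2 encodes the main sterol factor of the pair. In TCam-2 it lay at 284.7, 290.5, 284.4 and 287.7 CPM scrambled and at 361.3, 362.4, 318.9 and 338.3 CPM with the mimic. The groups did not overlap, and SREBF2 rose 1.22-fold (log2 0.28, SE 0.060, edgeR adjusted p = 0.000507) in the line where most enzymes fell. In NT2/D1 it lay at 456.0, 352.7, 398.6 and 418.0 CPM scrambled and at 373.2, 397.3, 354.9 and 349.4 CPM with the mimic, overlapping through scrambled replicate 2 (log2 -0.15, 95% interval -0.31 to 0.02, adjusted p = 0.116). Without that library it was called lower (log2 -0.21, adjusted p = 0.015). The difference between lines was -0.41 (adjusted p = 0.00103).

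SREBF1, whose product mainly serves fatty acid synthesis, passed in neither line. Its NT2/D1 values were 123.4, 69.1, 90.6 and 100.6 CPM scrambled and 74.6, 91.1, 72.3 and 69.2 CPM with the mimic, a wide and overlapping spread (log2 -0.33, SE 0.14, edgeR adjusted p = 0.0577). Scrambled replicate 2 was again the low one, and without it SREBF1 was called lower (log2 -0.45, adjusted p = 0.000725). It was likewise called without mimic replicate 2 (adjusted p = 0.0245), with DESeq2 (adjusted p = 0.0428), with upper-quartile factors (adjusted p = 0.0173) and with no filter (adjusted p = 0.00254). In TCam-2 the values were 112.7, 121.7, 119.5 and 122.6 CPM scrambled and 140.1, 138.5, 92.4 and 115.0 CPM with the mimic, with 2 mimic libraries above and 1 below all scrambled ones (log2 0.04, 95% interval -0.17 to 0.26, adjusted p = 0.719). Without mimic replicate 3, the low one, it was called higher (log2 0.15, adjusted p = 0.0406).

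SCAP, the escort of the SREBPs, fell in TCam-2 from 73.4, 82.1, 75.5 and 74.4 CPM to 50.5, 51.4, 43.0 and 49.7 CPM, without overlap (log2 -0.64, SE 0.073, edgeR adjusted p = 5.7e-07). In NT2/D1 it lay at 146.9, 97.7, 124.0 and 133.1 CPM scrambled and 109.8, 114.3, 103.8 and 104.3 CPM with the mimic, and scrambled replicate 2 made the groups overlap (log2 -0.22, SE 0.098, adjusted p = 0.0638). Without that library SCAP was called lower (log2 -0.32, adjusted p = 0.00104), as it was with upper-quartile factors (adjusted p = 0.0147) and in 1 fit of all 16 libraries (adjusted p = 0.0438). The difference between lines was 0.43 (adjusted p = 0.00633).

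INSIG1, which retains SCAP and is a feedback target of SREBP, fell in TCam-2 from 67.5, 65.8, 71.3 and 65.2 CPM to 35.1, 35.2, 34.3 and 38.8 CPM. The groups were separate and the fall 1.87-fold (log2 -0.90, SE 0.072, edgeR adjusted p = 5.36e-09). In NT2/D1 the groups overlapped, at 158.5, 152.0, 160.3 and 160.2 CPM and 153.1, 139.2, 156.0 and 156.0 CPM (log2 -0.07, 95% interval -0.21 to 0.07, adjusted p = 0.395), and the difference between lines was 0.85 (adjusted p = 1.72e-08). INSIG2, the paralogue with the same retaining role, rose in NT2/D1 from 8.64, 11.7, 10.3 and 10.4 CPM to 15.5, 18.7, 18.9 and 18.2 CPM without overlap, a 1.74-fold rise (log2 0.79, SE 0.11, adjusted p = 1.31e-05). In TCam-2 its groups of 12.6, 15.4, 16.9 and 14.7 CPM scrambled and 13.1, 12.7, 16.9 and 13.5 CPM with the mimic overlapped fully (log2 -0.07, 95% interval -0.32 to 0.17, adjusted p = 0.586). INSIG1 and INSIG2 both carry a 7mer match to the seed in the 3′ UTR.

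**Figure D3:**
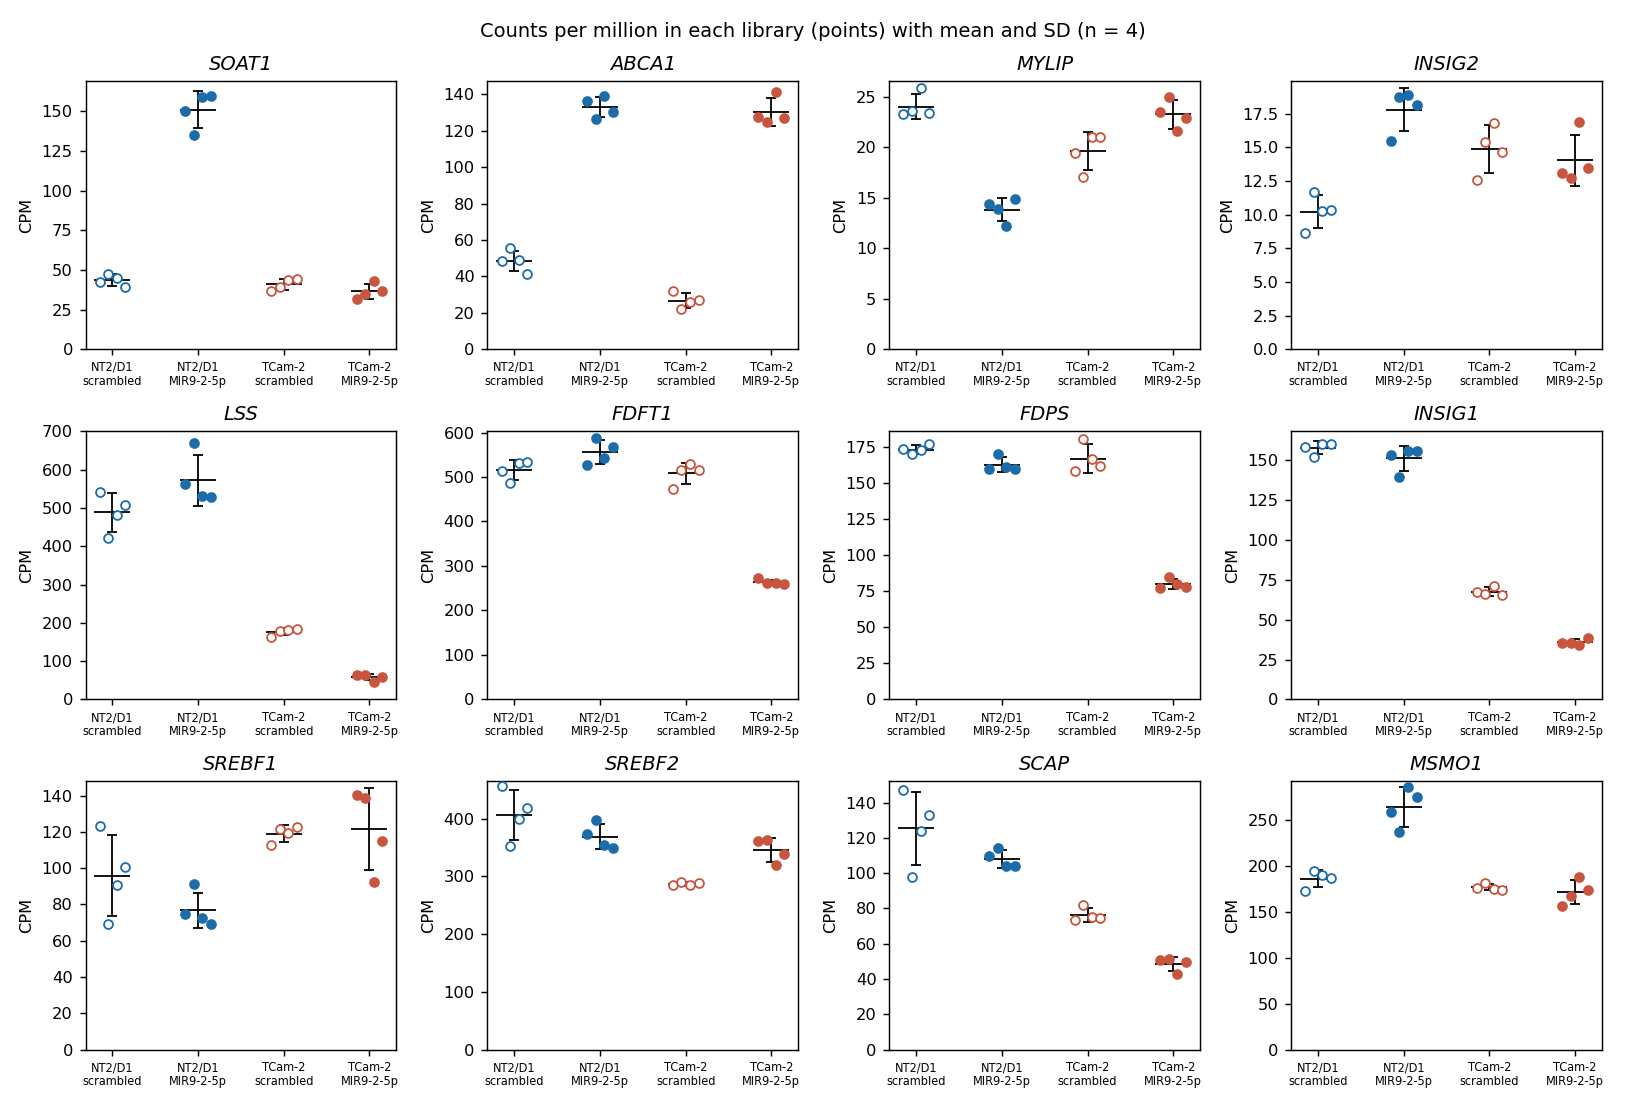
CPM of 12 members in each library (points; open scrambled, filled MIR9-2-5p), with mean and SD of 4 libraries. SOAT1 and INSIG2 separated in NT2/D1 alone, ABCA1 in both lines, and LSS, FDFT1, FDPS and INSIG1 fell in TCam-2 from groups that did not overlap. For SREBF1 and SCAP, scrambled replicate 2 of NT2/D1 was the lowest of its group. Over the 29 members that library was lowest for 13 and highest for 11.

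The largest rises were in export and storage. ABCA1, the pump that loads cholesterol onto apolipoprotein A-I, lay in NT2/D1 at 48.3, 55.4, 48.9 and 41.4 CPM scrambled and 136.4, 126.3, 138.8 and 130.4 CPM with the mimic, a 2.74-fold rise (log2 1.45, SE 0.085, edgeR adjusted p = 2.59e-10). In TCam-2 it went from 32.1, 22.2, 25.8 and 27.1 CPM to 127.6, 124.6, 141.3 and 126.9 CPM, a 4.90-fold rise (log2 2.29, SE 0.098, adjusted p = 2.2e-12). Neither pair overlapped, and the mimic libraries of both lines came to like CPM from different scrambled levels. The lines differed by -0.83 on the log2 scale (adjusted p = 7.33e-06). ABCG1, the partner pump that loads HDL, was low, at 15 to 74 counts a library. It rose from 1.29 to 1.59 CPM to 2.00 to 3.601 CPM in NT2/D1 and from 0.782 to 1.499 CPM to 3.13 to 3.80 CPM in TCam-2 (log2 0.74 and 1.66), again without overlap.

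SOAT1, which esterifies cholesterol for storage in droplets, rose in NT2/D1 from 42.5, 47.6, 45.1 and 39.0 CPM to 150.4, 134.8, 159.1 and 159.4 CPM. The groups were far apart, a 3.46-fold rise (log2 1.79, SE 0.083, edgeR adjusted p = 1.42e-11). In TCam-2, from nearly the same scrambled level, it lay at 36.8, 39.1, 43.6 and 44.2 CPM and at 31.8, 34.9, 42.8 and 36.4 CPM with the mimic, overlapping groups (log2 -0.15, 95% interval -0.35 to 0.04, adjusted p = 0.158). Without mimic replicate 3, the highest of its group, SOAT1 was called lower there (log2 -0.24, adjusted p = 0.0114). The difference between lines was 1.96 (SE 0.13, adjusted p = 2.51e-12), the largest of the 29.

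MYLIP, the ubiquitin ligase that sends the LDL receptor to breakdown, was the only member called lower in NT2/D1 in the main test, while other settings called up to 6. It went from 23.3, 23.6, 25.9 and 23.4 CPM to 14.4, 13.9, 12.2 and 14.9 CPM, with a clear gap (1.75-fold lower, log2 -0.80, SE 0.095, edgeR adjusted p = 1.55e-06). In TCam-2 it rose slightly, from 19.5, 17.1, 21.0 and 21.0 CPM to 23.5, 25.04, 21.6 and 23.0 CPM, groups that come close without overlap (log2 0.26, SE 0.095, adjusted p = 0.021). That rise was lost without mimic replicate 2 (adjusted p = 0.0708) or scrambled replicate 2 (adjusted p = 0.12). The lines differed by -1.05 on the log2 scale (adjusted p = 2.4e-07). In NT2/D1 MYLIP thus fell where ABCA1 and ABCG1, which LXR also drives, rose.

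Both receptor genes changed by less than ABCA1. NR1H3 rose in NT2/D1 (log2 0.29), a call that was absent with upper-quartile factors, and fell in TCam-2 (-0.47). NR1H2 fell in TCam-2 (-0.72) and had a log2 fold change of 0.22 in NT2/D1 that did not pass. In TCam-2, both receptor mRNAs fell where ABCA1, ABCG1 and MYLIP rose. NR1H2 overlaps NAPSA on the other strand over 1182 exon bases, and 14 of the 29 members overlap some other gene in their exons. STARD4, a carrier of cholesterol between membranes, rose in NT2/D1 (log2 0.27, edgeR adjusted p = 0.0419) from overlapping groups, was not called there with upper-quartile factors or the replicate block, and had a log2 fold change of 0.15 in TCam-2 that did not pass.

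The scrambled libraries of the lines were compared to give the starting levels. Of the 29 members, 12 were higher in NT2/D1, 7 lower and 10 not called, or 65.5% called where 79.2% of all 17740 genes tested were, and 41.4% higher against 39.8% and 24.1% lower against 39.4%. ACAT2 stood out, at 147.4 to 156.5 CPM in NT2/D1 and 5.28 to 6.81 CPM in TCam-2, 25.4-fold higher (log2 4.67, edgeR adjusted p = 1.47e-17). LSS (2.76-fold), CYP51A1 (2.35-fold), INSIG1 (2.34-fold), ABCA1 (1.81-fold) and SCAP (1.64-fold) were also higher in NT2/D1. NSDHL (1.92-fold), SQLE (1.81-fold), NR1H2 (1.76-fold), PMVK (1.72-fold) and TM7SF2 (1.64-fold) were lower there. SOAT1 and FDFT1 did not pass (log2 0.09, 95% interval -0.09 to 0.27, and 0.02, -0.11 to 0.15). Per kilobase of exon, FDFT1 had the highest level in each line, at 101.5 ± 4.37 (SD, n = 4) CPM per kb in NT2/D1 and 100 ± 4.79 in TCam-2. LSS (67.5 ± 7.02) and MSMO1 (65.2 ± 3.25) came next in NT2/D1 and did not differ beyond their spread, while SQLE (77.1 ± 0.978) and MSMO1 (61.9 ± 1.20) came next in TCam-2. ABCG1 was the lowest in both, at 0.244 ± 0.0226 and 0.180 ± 0.0499.

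**Figure D4:**
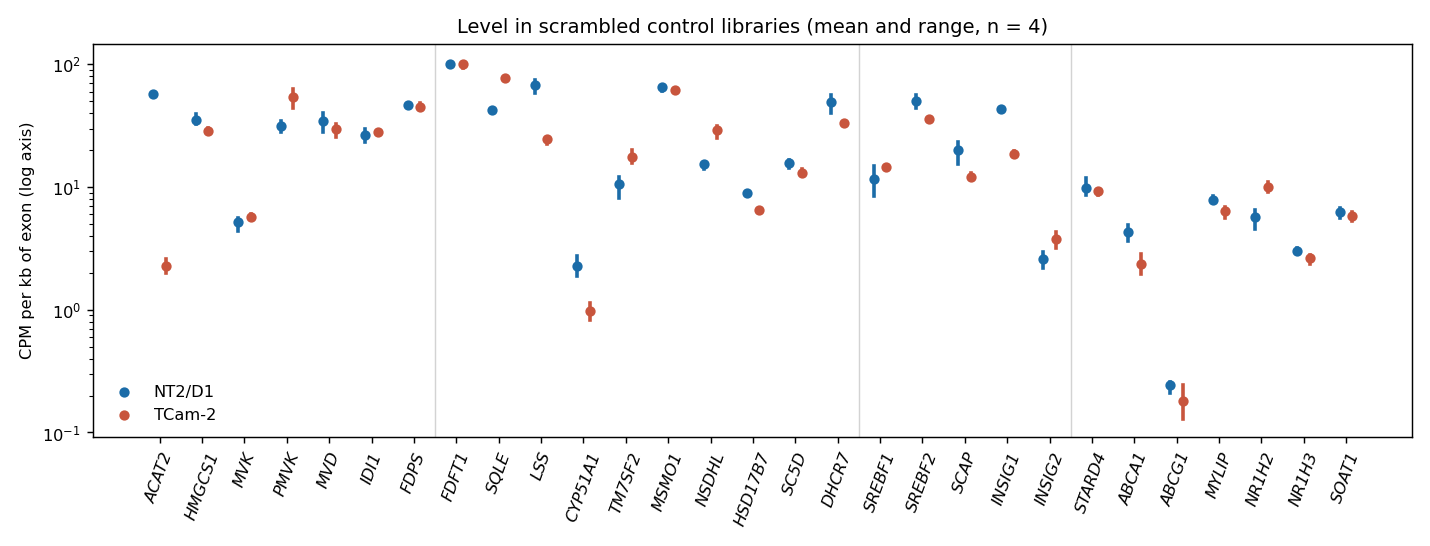
Level of the 29 members in the scrambled libraries, in CPM per kilobase of exon on a log axis, with the mean (point) and the range (line) of 4 libraries in NT2/D1 (blue) and TCam-2 (red). Grey lines part the roles; ACAT2 shows the widest gap between the lines (57.8 and 2.28 CPM per kb), and ABCG1 the lowest levels.

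Neighbouring pathways were read from 4 further lists. Of 15 genes of fatty acid synthesis, 5 rose and 3 fell of 14 tested in NT2/D1, led by the desaturases FADS2 (log2 0.41, edgeR adjusted p = 6.08e-05) and FADS1 (0.40, adjusted p = 6.7e-05). In TCam-2, 4 rose and 8 fell of 15, led by ACSS2, which makes acetyl-CoA from acetate (-1.58, adjusted p = 2.09e-12), and the elongase ELOVL5 (1.93, adjusted p = 4.59e-12). ACSS2 fell from 112.2 to 125 CPM to 37.4 to 41.8 CPM and ELOVL5 rose from 13.2 to 15.5 CPM to 47.8 to 56.8 CPM. By share, 57.1% of the list was called in NT2/D1 and 80.0% in TCam-2, beside 59.3% and 66.3% of all genes.

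Of 12 genes that use isoprenoids outside the sterol route, 2 rose and 6 fell in NT2/D1, with DHDDS of dolichol synthesis up (log2 1.10) and the methyltransferase ICMT down (-0.61), and 4 rose and 3 fell in TCam-2, with RABGGTA (-0.56) and PGGT1B (0.70), both subunits of prenyltransferases. The called shares, 66.7% and 58.3%, stand beside 59.3% and 66.3% of all genes in these lines. Of 10 genes that process or degrade SREBP and INSIG proteins, 4 rose and 3 fell in NT2/D1, with PAQR3, which tethers SCAP and SREBP to the Golgi, up (0.64), and 5 rose and 4 fell in TCam-2, led by the protease MBTPS2 (0.76) and the conjugating enzyme UBE2G2 (-0.49), or 70% and 90% called. Of 13 tested genes of other sterol transport and storage, 6 rose and 3 fell in NT2/D1, with the ester hydrolase NCEH1 (1.57) and the transfer protein GRAMD1C (1.12) up. In TCam-2, 3 rose and 7 fell, with the sterol carrier OSBP up (0.75) and the HDL receptor SCARB1 down (-0.77), and the called shares were 69.2% and 76.9%.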

How the data were processed

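RNA was sequenced from 16 libraries, 4 biological replicates in each of 4 groups, by NEBNext Ultra libraries and paired-end reads. The deposited values are raw counts per gene, which the authors made by alignment to GRCh38 with STAR and counting with featureCounts. The submitters' processing notes also name Trim Galore, cutadapt and FastQC, and the methods name fastp. Neither the annotation release nor the strandedness of counting was stated in the sources used here, and for the authors' own tests the methods name DESeq2 and some figure legends edgeR. Gene IDs were named through GENCODE 44 (58207 of 58735 matched).

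Counts were tested with edgeR 4.0.16 in R 4.3.3 (quasi-likelihood F test, robust, TMM factors, filterByExpr with a minimum count of 10), each line fitted alone on 8 libraries, the interaction on all 16 and the scrambled groups on 8. Tests are two-sided, with Benjamini-Hochberg adjustment over all genes tested and calls under 0.05. CPM are TMM-scaled. Intervals are 95% intervals from the fit. Every pair of replicates differed beyond counting noise. Alternatives were upper-quartile or RLE factors, DESeq2 1.42.0, a fold minimum of 1.5, no filter, a replicate block, 1 fit of all 16 libraries and each library left out. The method was also run on simulated counts in which few genes changed, and the outcome is not given here. That run does not cover scaling where most genes change, as in these lines. Seed matches were searched in the 3′ UTR of canonical GENCODE 44 transcripts, and miRNA and promoter sequences are from RefSeq (GRCh38.p14).

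Members and lists were chosen with earlier results of these data known. Full values were given for the 6 called members with the smallest adjusted p in each line, the 6 for the difference between lines and the 5 SREBP control genes, and of each further list the 2 genes with the smallest p in each line (1 of them is not reported here); other genes named with values, such as MVD, CYP51A1, ABCG1 and those of the scrambled comparison, are members given by fold change or marker genes. Genes of this pathway outside the lists were not analysed here.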

Additional observations from a re-analysis of the deposited data

Results flagged for a closer look

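In 3 of 116 sets of 4 replicates, 1 library lay far from the other three by Dixon's test, where chance alone gives about 1 in 20, or 5.8. They were FDPS in NT2/D1 mimic replicate 2 (170.1 CPM, the highest), LSS in TCam-2 scrambled replicate 1 (162.2 CPM, the lowest) and MYLIP in NT2/D1 scrambled replicate 3 (25.89 CPM, the highest). Over the 29 members, TCam-2 scrambled replicate 1 was the lowest of its group for 18 and the highest for 2. TCam-2 mimic replicate 3 was lowest for 15 and highest for 10.

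The response to MIR9-2-5p differed between the lines, by the interaction test in edgeR, for 26 members. The differences of log2 fold change, NT2/D1 minus TCam-2, were positive for the mevalonate enzymes ACAT2 (0.70), HMGCS1 (0.46), MVK (1.07), PMVK (0.51), MVD (1.37), IDI1 (0.70) and FDPS (0.97). Among the sterol enzymes they were also positive, for FDFT1 (1.05), SQLE (0.75), LSS (1.82), TM7SF2 (1.51), MSMO1 (0.55), NSDHL (1.09), HSD17B7 (0.42), SC5D (0.27) and DHCR7 (0.54). In SREBP control the values were -0.41 for SREBF2, 0.43 for SCAP, 0.85 for INSIG1 and 0.89 for INSIG2. In the last role they were -0.83 for ABCA1, -0.90 for ABCG1, -1.05 for MYLIP, 0.96 for NR1H2, 0.78 for NR1H3 and 1.96 for SOAT1. The call for SC5D (adjusted p = 0.0435) was the nearest to the threshold and was absent with DESeq2, RLE factors, upper-quartile factors and the replicate block.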

How the results depend on the processing

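A fold minimum of 1.5 lowered the counts by construction. In NT2/D1 it called 4 of 29 members (3 higher), beside 3907 of 17586 genes tested. In TCam-2 it called 9 of 29 members (2 higher, 7 lower), beside 4178 of 16847 genes. For the difference between lines it called 14 of 29 members (12 positive, 2 negative), beside 5239 of 19576 genes. Between scrambled groups it called 9 of 29 members (5 higher, 4 lower), beside 9206 of 17740 genes. Members called lower in NT2/D1 numbered 2 with DESeq2, 2 with no filter, 2 in 1 fit of all 16 libraries and 6 with upper-quartile factors. The cause was not tested.

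As single libraries were left out, members called in NT2/D1 ranged from 10 to 15 of 29 (9 to 12 higher, 1 to 4 lower). Beside them, 9634 to 10586 of 17813 to 18168 genes tested were called. Lower members numbered 4 without scrambled replicate 2 and 2 without mimic replicate 2. In TCam-2 the members called ranged from 20 to 25 (3 to 6 higher, 17 to 19 lower), with 3 higher without mimic replicate 2 or scrambled replicate 2. Beside them, 10525 to 11432 of 17073 to 17420 genes tested were called. For the difference the range was 24 to 27 members (21 to 22 positive, 3 to 5 negative), beside 9966 to 10482 of 20049 to 20161 genes tested. Between scrambled groups it was 17 to 20 members (11 to 13 higher, 6 to 7 lower), beside 13789 to 14342 of 18104 to 18334 genes. Uncalled values near 0 changed sign: SQLE in NT2/D1 (-0.067 with upper-quartile factors, and -0.0048 to 0.023 as single libraries were left out), and in TCam-2 MSMO1 (-0.080 to 0.013, above 0 without mimic replicate 1) and SREBF1 (-0.029 to 0.153, below 0 without mimic replicate 1 or 2). No called value of the genes given in full changed sign.

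The labels give replicates a number and do not say whether same-numbered libraries were paired. Correlations of deviations ran from -0.391 to 0.137 for same-numbered libraries and from -0.255 to 0.331 for the others. With 4 libraries a group, these values cannot show whether pairing was present. With the replicate block, NT2/D1 had 10 higher and 1 lower members, beside 4917 and 4638 of 17586 genes tested. TCam-2 had 4 and 17, beside 5488 and 5331 of 16847. There were 21 positive and 4 negative differences, beside 5230 and 4597 of 19576. Between scrambled groups 12 members were higher and 7 lower, beside 6848 and 6810 of 17740. CYP51A1 and ABCG1 are limited by their low counts.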
